A study of Saccharomyces cerevisiae with 4 samples.

Results

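The autophagy (ATG) genes of budding yeast were taken as all genes on the array whose standard symbol is ATG followed by a number. Of the 37 such symbols in the RefSeq annotation, 36 were on the array, out of 6218 open reading frames (ORFs) in all, and ATG44 was not. They were grouped by their known roles. The core machinery of autophagosome formation had 18 genes, with ATG17, a scaffold in starvation, and its partners among them. Selective autophagy had 13 genes (receptors, their scaffold, mitophagy, and the transport of Atg9 vesicles and of the Cvt pathway). The 5 others were vacuolar enzymes and carriers, a sterol enzyme and ATG41. This grouping is not strict, since ATG41 also takes part in Atg9 transport, and shares by group depend on it. VPS30 and SNX4, which carry ATG names only as synonyms, fall outside this rule and are described with the other genes of the pathway.

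The study followed the transcriptome of sporulating cells after their return to rich medium. The cells were SK1 diploids (GF18) in which NDT80, the regulator of middle sporulation genes, is tagged with 3HA and driven by a 1 kb SPS4 promoter next to a KanMX marker (pSPS4-3HA-NDT80), so every sample carried this allele and none was wild type. The strain came from mating transformed NKY1712 haploids with NE30. Cells were grown in YPD, then overnight in YPA (acetate medium), and sporulation was started in SPM, a medium with potassium acetate and raffinose. The 4 groups, of 1 array each, were cells sampled at 5.5 h in SPM and cells of the same culture that were spun down, put into YPD (rich medium with glucose) and sampled 0, 20 or 40 min later. Each sample was labelled with Cy5 and shared its array with a common Cy3-labelled reference from YPA-grown NKY1551 cells, which are wild-type SK1 diploids. The source names round 5.5 h down to whole hours.

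Autophagy wraps part of the cell in a double membrane, the autophagosome, and delivers it to the vacuole for breakdown. Starvation switches it on and rich medium switches it off through nutrient-sensing kinases, and in yeast it is needed for sporulation, during which cells live on their own reserves. In bulk form it takes cytoplasm at random, while selective forms use receptors that bind mitochondria, endoplasmic reticulum, nuclear envelope, peroxisomes, glycogen or vacuolar enzymes and link them to Atg8 and to the scaffold Atg11. The Cvt pathway is a selective form that works in growing cells and carries hydrolases to the vacuole.

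Values are log2 ratios of sample over reference, each the mean of 2 adjacent spots with the SD between them (n = 2 spots on 1 array). This SD leaves out the error of position on the slide, labelling, RNA preparation and culture, so it is smaller than the error of a repeated experiment, and without replicate arrays no difference was tested. A change after transfer is the log2 ratio on a YPD array minus that on the 5.5 h SPM array. A gene was counted as higher or lower when its mean and both of its spots were 2-fold or more to the same side. The probes are double-stranded PCR products and cannot tell strands apart. The 3 changes share the SPM array, and no SPM array was taken after 5.5 h, so the medium, the handling and the time that passed cannot be told apart.

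Between 51.9% and 55.8% of all genes gave a Cy5 signal above that of buffer-only spots (over their 95th percentile), and duplicate spots correlated across genes at r = 0.975 to 0.982. All 8 sporulation markers were at least 2-fold higher than in the reference at 5.5 h, with a median of 6.76, and 4 of the 5 markers of growing cells were lower, with a median of -3.56, as labelled. NDT80, driven here by the SPS4 promoter and compared with a wild-type reference, had a ratio of 6.79. This was at least 50.8-fold because the reference was not above background. NDT80 and SPS4, both among the 8 sporulation markers, are thus not separate markers in this strain. At 40 min the late spore wall markers DIT1, DIT2 and SPS100 were all higher than at 5.5 h (median change 3.02), the median change of the sporulation markers was -1.22, and that of the growth markers was 1.99. Over all genes the median change against 5.5 h was -0.16, -0.26 and -0.22 in the order of the YPD arrays, and the changes below are given on that scale. In these bulk samples fewer cells of a type and less RNA per cell cannot be told apart.

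At 5.5 h in SPM, 11 of the 36 ATG genes were higher than in the YPA reference and 5 were lower. Over all genes 21.7% were higher and 18.1% lower. Sample and reference differ in strain, medium and culture, which cannot be told apart in this comparison. The 11 were 6 of the core machinery (ATG1, ATG3, ATG4, ATG8, ATG14 and ATG18) and 5 of the selective members (ATG32, ATG33, ATG39, ATG40 and ATG45), and all 11 were above background in sample and reference. The median ratio was 0.32 over the ATG genes, 0.56 over the core machinery and 0.50 over the selective members, against 0.01 over all genes. After transfer to YPD, no ATG gene was counted at 0 min, when 7.59% of all genes were higher and 4.13% lower than at 5.5 h. At 20 min 14 ATG genes were lower and 1 was higher, beside 15.8% and 11.5% of all genes, and at 40 min 13 were lower and 1 was higher, beside 19.8% and 13.9%. The gene that was higher was ATG11, and this count was lost under 1 of the 5 ways of scaling, with the values given for that gene.

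**Figure D1:**
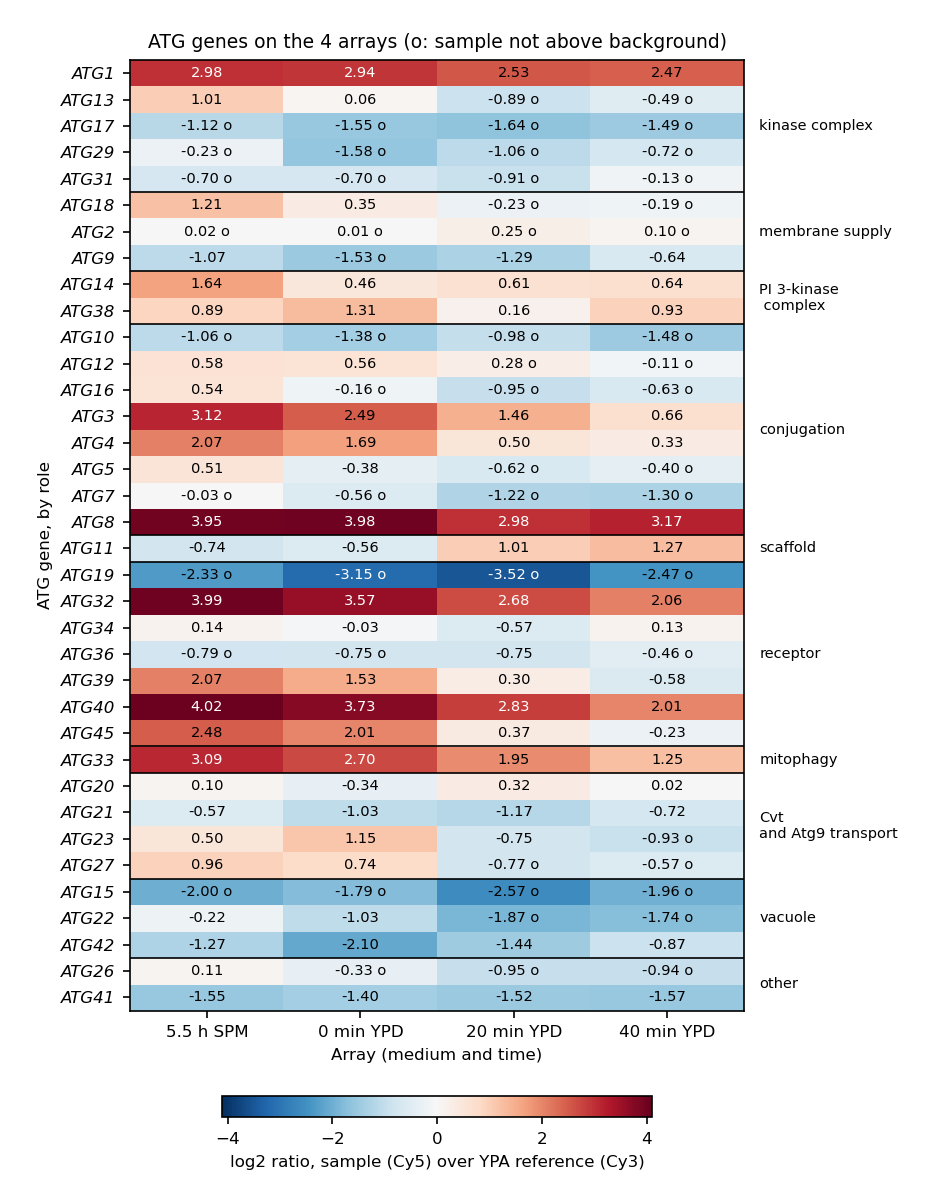
Log2 ratio of the sample (Cy5) over the YPA reference (Cy3) for the 36 ATG genes (rows, by role) on the 4 arrays (columns), with red above and blue below the reference and an o where the sample was not above background. ATG8, ATG32 and ATG40 hold the highest ratios, between 3.95 and 4.02 at 5.5 h, and ATG11 is below the reference in the left columns and above it in the right columns.

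In the kinase complex that starts autophagosome formation, ATG1, the protein kinase itself, had ratios of 2.98 ± 0.00 at 5.5 h, 2.94 ± 0.14 at 0 min, 2.53 ± 0.07 at 20 min and 2.47 ± 0.25 at 40 min. It was 7.89-fold above the reference at 5.5 h and more than 2-fold above it on all 4 arrays. Its change at 40 min was -0.52 ± 0.25 by ratio. By the Cy5 channel alone, scaled between arrays, it was -1.91, and the background-subtracted reference intensity of ATG1 was 801 on the 40 min array against 1728 to 2806 on the others. The size of the ATG1 change at 40 min therefore differed between the ratio and the sample channel.

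ATG13, the regulatory subunit of the kinase, had ratios of 1.01 ± 0.12, 0.06 ± 0.03, -0.89 ± 0.20 and -0.49 ± 0.24 on the 4 arrays in the same order. At 20 and 40 min the sample was not above background, so the change was at least 2.18-fold lower at 20 min and at least 1.88-fold lower at 40 min. ATG17, the scaffold of the complex in starvation, had ratios of -1.12 ± 0.11, -1.55 ± 0.13, -1.64 ± 0.13 and -1.49 ± 0.18, and its sample signal was above background on none of the arrays. It counted as lower than the reference at 5.5 h, with no fold that the background allows. Its partners ATG29 and ATG31 were also not above background on any array, so of the 5 genes of the complex only ATG1 was measured well above background throughout.

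Among the genes of membrane supply, ATG18, which binds phosphoinositides and works with Atg2, had ratios of 1.21 ± 0.20, 0.35 ± 0.08, -0.23 ± 0.20 and -0.19 ± 0.06. It was at least 2.26-fold lower at 20 min and at least 1.94-fold lower at 40 min than at 5.5 h, with the sample not above background on those later arrays. ATG14, the subunit that directs the phosphatidylinositol 3-kinase complex to autophagy, had ratios of 1.64 ± 0.12, 0.46 ± 0.36, 0.61 ± 0.11 and 0.64 ± 0.11. By ratio its change lay close to 2-fold throughout, with values of -1.18 ± 0.48, -1.03 ± 0.01 and -0.998 ± 0.01 on the YPD arrays in order. Of these only the 20 min value counted. In the sample channel alone the changes were -0.48, -0.44 and -0.71, all under 2-fold. The lower ratio was already there on the 0 min array.

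The conjugation system joins Atg8, a ubiquitin-like protein, to a membrane lipid. ATG8 itself had ratios of 3.95 ± 0.14 at 5.5 h, 3.98 ± 0.15 at 0 min, 2.98 ± 0.17 at 20 min and 3.17 ± 0.15 at 40 min, so it was 15.5-fold above the reference at 5.5 h and stayed far above it. It was 1.96-fold lower at 20 min (change -0.97 ± 0.02) and 1.72-fold lower at 40 min (change -0.78 ± 0.00), both under 2-fold. In the sample channel alone these changes were -0.50 and -0.66. Loess fitted within each print block gave -1.91 and -1.77, which pass 2-fold.

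ATG3, the E2-like enzyme of Atg8, had ratios of 3.12 ± 0.26, 2.49 ± 0.01, 1.46 ± 0.05 and 0.66 ± 0.20, a decline on every array in turn. At 40 min it was 5.51-fold lower than at 5.5 h (change -2.46 ± 0.06). ATG4, the protease that processes Atg8, had ratios of 2.07 ± 0.33, 1.69 ± 0.16, 0.50 ± 0.14 and 0.33 ± 0.14 and was 3.34-fold lower at 40 min (change -1.74 ± 0.47). ATG3, ATG4 and ATG8 were thus all more than 4-fold above the reference at 5.5 h, and at 40 min ATG3 and ATG4 were within 2-fold of the reference while ATG8 was not. ATG7, the E1-like enzyme, had ratios of -0.03 ± 0.04, -0.56 ± 0.21, -1.22 ± 0.02 and -1.30 ± 0.15. It counted as lower at 20 and 40 min, but its sample signal was not above background on any array, so no fold is given.

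Of the receptors, ATG40, which binds endoplasmic reticulum, had ratios of 4.02 ± 0.08 at 5.5 h, 3.73 ± 0.15 at 0 min, 2.83 ± 0.06 at 20 min and 2.01 ± 0.06 at 40 min. It was 16.3-fold above the reference at 5.5 h and 4.02-fold lower at 40 min than at 5.5 h (change -2.01 ± 0.14). The mitophagy receptor ATG32 had ratios of 3.99 ± 0.04, 3.57 ± 0.12, 2.68 ± 0.10 and 2.06 ± 0.07 and was 3.82-fold lower at 40 min (change -1.93 ± 0.11). ATG33, a mitochondrial protein of mitophagy, had ratios of 3.09 ± 0.02, 2.70 ± 0.32, 1.95 ± 0.04 and 1.25 ± 0.09, a change of -1.84 ± 0.11. The ratios of these 3 genes were lower on each array in turn and still more than 2-fold above the reference at 40 min. For ATG40 the reference was not above background on the 20 min array, and the changes in the sample channel alone were -0.42, -2.41 and -2.34, with no further decline from 20 to 40 min.

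ATG39, the receptor of nuclear envelope autophagy, and ATG45, the receptor of glycogen autophagy, declined further. ATG39 had ratios of 2.07 ± 0.10, 1.53 ± 0.08, 0.30 ± 0.01 and -0.58 ± 0.05 and was 6.29-fold lower at 40 min (change -2.65 ± 0.15). ATG45 had ratios of 2.48 ± 0.14, 2.01 ± 0.07, 0.37 ± 0.10 and -0.23 ± 0.02 and was 6.53-fold lower (change -2.71 ± 0.16). Both began more than 4-fold above the reference and ended below it, and by ratio theirs were the largest changes of the ATG genes. In the sample channel alone their changes at 40 min were -2.67 and -2.09, and that of ATG3 was larger, at -2.91.

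ATG19, the receptor of the Cvt pathway, stood at the other end. Its ratios were -2.33 ± 0.03, -3.15 ± 0.26, -3.52 ± 0.28 and -2.47 ± 0.00, with a sample signal not above background on any array and a level at least 4.71-fold below the reference at 5.5 h. Its paralog and neighbour ATG34, a receptor for alpha-mannosidase in starvation, had ratios between -0.57 and 0.14 and was above background in both channels on every array. Paralogs can share hybridisation signal on PCR-product probes, so the separate values of ATG19 and ATG34 are uncertain to that extent. ATG36, the pexophagy receptor, was above background in the sample at 20 min only.

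ATG11, the scaffold that links receptors with their cargo to the core machinery, went the opposite way. Its ratios were -0.74 ± 0.28 at 5.5 h, -0.56 ± 0.24 at 0 min, 1.01 ± 0.17 at 20 min and 1.27 ± 0.08 at 40 min. The background-subtracted sample intensity was 1808, 1330, 5581 and 8981 on these arrays and the reference intensity 4010, 2800, 2879 and 2622. ATG11 was 3.37-fold higher at 20 min (change 1.75 ± 0.45) and 4.02-fold higher at 40 min (change 2.01 ± 0.37) than at 5.5 h, and 2.97-fold higher at 20 min than at 0 min. Loess fitted within each print block reduced the change to 0.57 at 20 min and 0.22 at 40 min, neither counted, while the other 3 scalings gave 1.74 to 1.91 and 1.95 to 2.09. The higher ATG11 ratio in YPD thus depends on how the ratios are scaled within the array.

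ATG23 and ATG27, membrane proteins that move Atg9 vesicles, were lower in YPD as well. ATG23 had ratios of 0.50 ± 0.02, 1.15 ± 0.19, -0.75 ± 0.09 and -0.93 ± 0.12. It was higher at 0 min than at 5.5 h by 0.65 ± 0.16, less than 2-fold. At 20 min it was 3.72-fold lower than at 0 min, the largest step by ratio of any ATG gene between those arrays. In the sample channel alone this step was -1.38, and that of ATG40 was larger, at -1.99. ATG27 had ratios of 0.96 ± 0.04, 0.74 ± 0.11, -0.77 ± 0.04 and -0.57 ± 0.04 and was at least 1.28-fold lower at 40 min. ATG20 and ATG21, which act in the Cvt pathway, stayed within 2-fold of their 5.5 h values, and both were above background in both channels on every array.

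The vacuolar genes and ATG41 were at or below the reference at 5.5 h. ATG15, the lipase that opens autophagic bodies, had ratios of -2.0 ± 0.09, -1.79 ± 0.08, -2.57 ± 0.38 and -1.96 ± 0.16, at least 1.29-fold below the reference at 5.5 h with the sample not above background on any array. ATG42, a vacuolar carboxypeptidase, had ratios of -1.27 ± 0.05, -2.10 ± 0.03, -1.44 ± 0.06 and -0.87 ± 0.04, lowest on the 0 min array. ATG41, which takes part in Atg9 transport, lay 2-fold or more below the reference on all 4 arrays, with ratios of -1.55 ± 0.21, -1.40 ± 0.16, -1.52 ± 0.22 and -1.57 ± 0.15. Of this group only ATG22, a vacuolar amino acid exporter, passed 2-fold after transfer, with ratios of -0.22 ± 0.07, -1.03 ± 0.25, -1.87 ± 0.04 and -1.74 ± 0.05 and a level at least 1.40-fold lower at 20 min and at least 1.21-fold lower at 40 min.

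The other 14 ATG genes were counted in none of these comparisons, since the mean or at least 1 spot was within 2-fold. They were ATG2, ATG5, ATG9, ATG10, ATG12, ATG16, ATG20, ATG21, ATG26, ATG29, ATG31, ATG34, ATG36 and ATG38. Their ratios at 5.5 h ran from -1.07 (ATG9, the membrane protein of the seed vesicles) to 0.89 (ATG38, a subunit of the PI 3-kinase complex), and their changes at 40 min from -1.18 (ATG16) to 0.57 (ATG31). Means past 2-fold with 1 spot short of it included ATG9 and ATG10 at 5.5 h (-1.07 and -1.06), ATG29 at 0 min (-1.35 ± 0.63), and ATG5, ATG16 and ATG26 at 20 min (-1.14 ± 0.25, -1.50 ± 1.07 and -1.06 ± 0.47). The sample signal was above background on all 4 arrays for 4 of them (ATG20, ATG21, ATG34 and ATG38) and on none for another 4 (ATG2, ATG10, ATG29 and ATG31). Among the conjugation genes, ATG5, ATG10, ATG12 and ATG16, which build the Atg12-Atg5-Atg16 complex, were all within this set by ratio. In the sample channel alone ATG5 changed by -2.49 at 20 min and -2.30 at 40 min, with the sample not above background there. Its background-subtracted reference intensity was 1037 and 1035 on those arrays, against 3843 and 3113 on the earlier ones. ATG16 changed by -2.11 and -1.34 in that channel, and ATG10 and ATG12 stayed within 2-fold. ATG29 overlaps SET6, so its probe may also report that gene.

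At 20 min 6 of the 18 core genes (33.3%) and 7 of the 13 selective genes (53.8%) were lower than at 5.5 h, beside 15.8% of all genes. At 40 min the counts were 5 core genes (27.8%) and 7 selective genes (53.8%), beside 19.8% of all genes. The median change of the core machinery on the 3 YPD arrays in order was -0.44, -0.90 and -0.74, and that of the selective members -0.39, -1.19 and -1.43. The difference between the groups was not tested. The gap between the medians depended on how dim genes were filtered. Over the 5 core and 8 selective genes measured above background throughout, in sample and reference alike, the medians at 40 min were -0.998 and -0.994. Over the 7 core and 9 selective genes above background in both channels at 5.5 h and 40 min, a filter chosen after seeing the data, they were -0.78 and -1.84. Both filters leave out genes whose sample went below background in YPD.

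**Figure D2:**
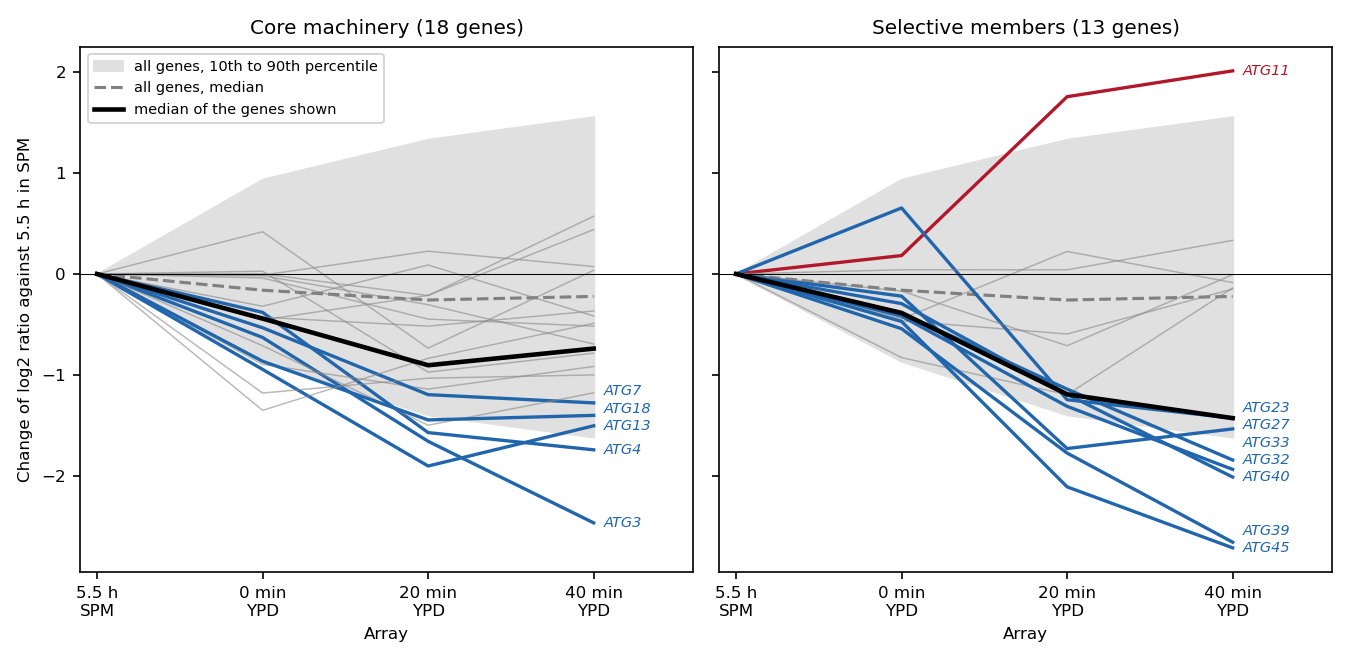
Change of the log2 ratio against 5.5 h in SPM (vertical axis) on each array (horizontal axis) for the 18 core and the 13 selective ATG genes, 1 line a gene, blue where lower and red where higher by 2-fold at 40 min, with the median of the genes shown in black and the median and 10th to 90th percentile of all genes in grey. The black line reaches -0.74 for the core machinery and -1.43 for the selective members at 40 min, and ATG11 is the red line.

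The number of ATG genes above background in the sample was 27, 24, 20 and 18 of 36 on the 4 arrays in order of time. Over all genes the shares were 54.4%, 54.7%, 55.8% and 51.9% in the same order. In the reference 34 or 35 ATG genes were above background on every array. Of the 13 genes lower at 40 min, 7 were above background on both arrays compared (ATG3, ATG4, ATG32, ATG33, ATG39, ATG40 and ATG45), 5 only at 5.5 h (ATG13, ATG18, ATG22, ATG23 and ATG27) and 1 on neither (ATG7). For those 5 the change is a bound, between at least 1.21-fold and at least 1.94-fold. A count of 7 was left when each dim side was set at its bound.

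**Figure D3:**
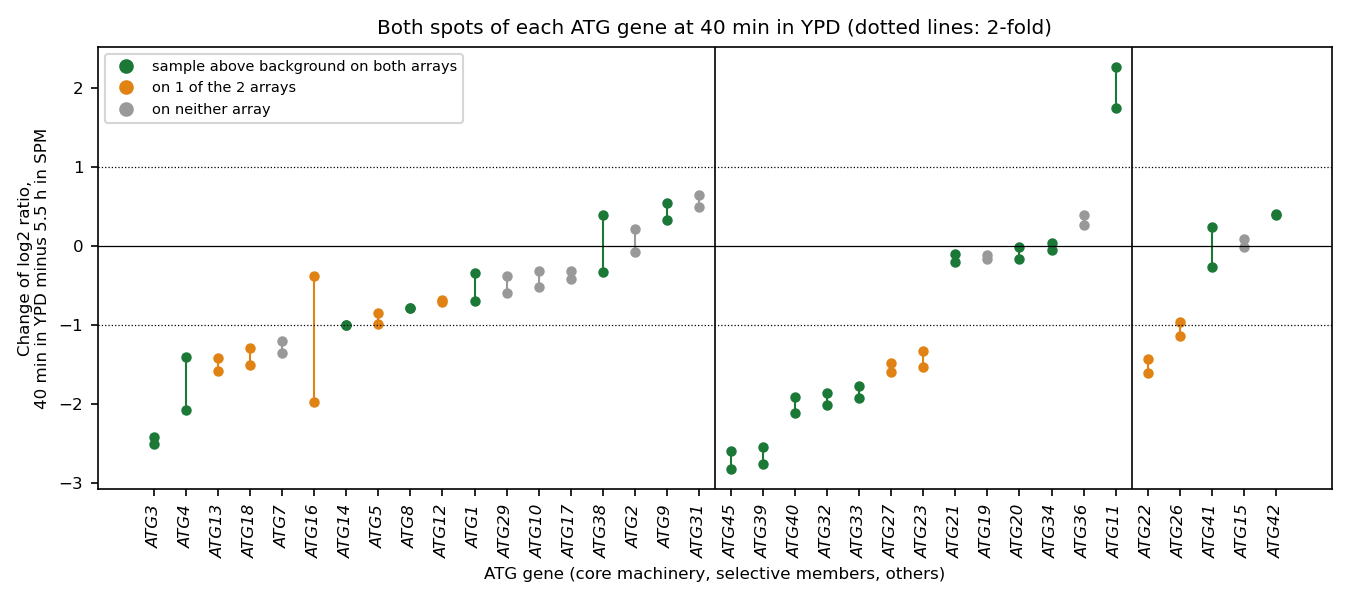
Change of the log2 ratio from 5.5 h in SPM to 40 min in YPD (vertical axis) for both spots of each of the 36 ATG genes, ordered by change within the core machinery, the selective members and the others; a line joins the 2 spots, colour gives whether the sample was above background on both, 1 or neither of the arrays, and dotted lines mark 2-fold. The spots of ATG16 lie far apart, and those of ATG3, ATG32, ATG39 and ATG45 lie close together and below 2-fold.

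The timing of the changes was followed from array to array. From 0 to 20 min in YPD 5 ATG genes were lower (ATG4, ATG23, ATG27, ATG39 and ATG45), beside 7.51% of all genes, and ATG11 was higher, beside 6.2%. From 20 to 40 min none was lower, beside 1.58% of all genes, and none was higher, beside 4.05%. By ratio, 12 of the 13 genes lower at 40 min took the largest of their 3 steps between 0 and 20 min. Among them were all 7 selective genes. ATG18 of the core took it between 5.5 h and 0 min. ATG13 was a near tie, with -0.94 ± 0.09 to 0 min and -0.96 ± 0.23 after it, as was ATG22, with -0.81 ± 0.32 and -0.84 ± 0.28. In the sample channel alone the largest step fell elsewhere for ATG3, ATG13, ATG18 and ATG32 of the 13. There the 3 steps were -0.30, -0.25 and -1.11 for ATG32 and -1.04, -0.84 and -1.04 for ATG3. Each step by ratio was downward in 8 of the 13 (ATG3, ATG4, ATG7, ATG32, ATG33, ATG39, ATG40 and ATG45). Largest steps and downward steps were not counted over all genes. The all-gene median steps were -0.16 to 0 min, -0.12 from 0 to 20 min and -0.02 from 20 to 40 min. Whether this timing is particular to the ATG genes was not tested. The largest step was not always most of the change, as for ATG3, with -1.03 ± 0.06 of -2.46. From 20 to 40 min the further change by ratio was under 2-fold in each. It was -0.88 ± 0.06 for ATG39, -0.81 ± 0.15 for ATG3, -0.70 ± 0.05 for ATG33, -0.62 ± 0.02 for ATG32 and -0.60 ± 0.08 for ATG45. For ATG40 it was -0.82 by ratio but 0.07 in the sample channel alone, with the reference not above background at 20 min.

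Against the reference, 11 ATG genes were higher and 9 lower at 0 min, beside 21.5% and 19% of all genes. At 20 min 6 were higher and 9 lower, beside 22.3% and 20.2%, and at 40 min 6 were higher and 7 lower, beside 19.7% and 17.7%. The 6 that were higher at 40 min were ATG1, ATG8, ATG11, ATG32, ATG33 and ATG40. The share of ATG genes that were higher at 40 min was below that of all genes, so these 6 are named as a list only. The change of ATG11 depends on the scaling, as given above.

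**Figure D4:**
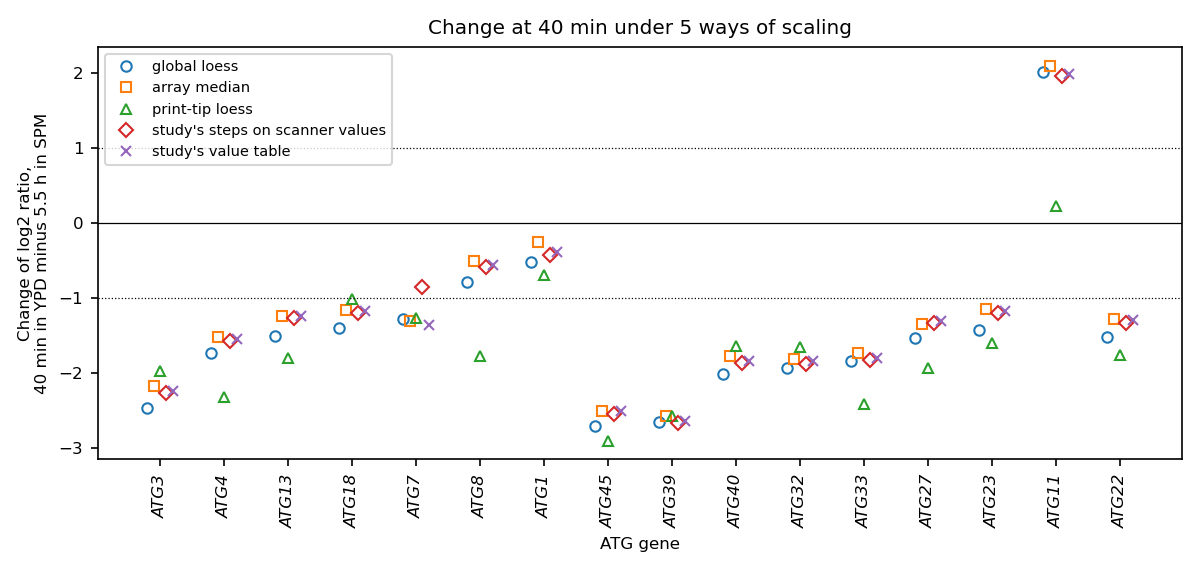
Change of the log2 ratio from 5.5 h in SPM to 40 min in YPD (vertical axis) for ATG1, ATG8 and the ATG genes past 2-fold, under 5 ways of scaling (symbols). For ATG11 the loess within print blocks gives 0.22 where global loess gives 2.01, and for ATG8 it gives -1.77 where global loess gives -0.78.

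Of the 13 genes lower at 40 min, 11 were lower under all 5 ways of scaling, the exceptions being ATG18 (-1.01 with 1 spot under 2-fold in print-block loess) and ATG7 (-0.86 with the study's own steps on the scanner values). Of the 11 genes higher at 5.5 h, 10 were higher under all 5. The exception was ATG18, with 0.98 to 1.21, which counted as higher under only 2 of the 5. Of the 5 genes lower at 5.5 h, 3 (ATG15, ATG19 and ATG42) were lower under all 5, while ATG41 was at -0.85 in print-block loess and ATG17 at -0.54 in the study's value table. At 20 min 8 genes were lower under all 5 (ATG3, ATG4, ATG13, ATG18, ATG22, ATG27, ATG39 and ATG45). Scaling by the array median left 9 genes lower at 20 min, without ATG14, ATG23, ATG32, ATG33 and ATG40, whose changes were then, in that order, -0.84, -1.002, -0.96, -0.92 and -0.93, and print-block loess gave -0.55 for ATG40.

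The 45 other genes of the pathway that were listed (partners of the Atg proteins, Cvt cargo, vacuole fusion, proteases, regulators of transcription and nutrient signalling) were all on the array. At 5.5 h 7 were higher and 7 lower than in the reference, beside 21.7% and 18.1% of all genes. Against 5.5 h, 4 were higher and 4 lower at 0 min, beside 7.59% and 4.13%. There were 1 higher and 9 lower at 20 min, beside 11.5% and 15.8%, and 3 higher and 8 lower at 40 min, beside 13.9% and 19.8%. Of the partners, VPS30, a subunit of the PI 3-kinase complex, had a ratio of 0.48 at 5.5 h. Its changes in YPD were -0.85 ± 0.03, -1.13 ± 0.01 and -1.11 ± 0.17, of which only the 20 min value counted. In the sample channel alone they were -0.50, -0.92 and -0.49. SNX4, a sorting nexin, had a ratio of 0.78 at 5.5 h and changes of -1.70 ± 0.25, -1.54 ± 0.15 and -1.82 ± 0.18, and was lower already at 0 min, where no ATG gene was counted.

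All 4 Cvt cargo genes, a group singled out after its values were seen, were lower than the reference at 5.5 h, beside 18.1% of all genes, as was their receptor ATG19. The aminopeptidase gene APE1 was at least 1.97-fold lower, LAP3 was at least 2.48-fold lower, and APE4 and the alpha-mannosidase gene AMS1 had ratios of -1.52 ± 0.13 and -1.42 ± 0.16. Of these, APE4 was higher by ratio at 40 min than at 5.5 h (change 1.5 ± 0.06). In the sample channel alone the APE4 change was 0.64, under 2-fold. AMS1 went the other way. It was at least 1.59-fold lower at 20 min, and its change of -1.06 ± 0.23 at 40 min was not counted. Its sample was not above background on those arrays. APE1 and LAP3 were counted in neither direction in YPD. ATG19 changed by -0.14 ± 0.04 from 5.5 h to 40 min, with its sample signal not above background.

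Among the regulators, UME6, which represses ATG8 and early meiotic genes in growing cells, had a ratio of 1.32 ± 0.03 at 5.5 h and changes of -0.41 ± 0.26, -1.38 ± 0.04 and -1.56 ± 0.16. RPH1, a repressor of several ATG genes, was higher on the 0 min array only, with changes of 1.91 ± 0.04, 0.17 ± 0.06 and 0.37 ± 0.12. The kinase gene TOR1, which holds autophagy down in rich medium, was at least 5.39-fold higher at 40 min than at 5.5 h, and GLN3, an activator of nitrogen-responsive genes, was at least 2.54-fold higher. TPK2, a catalytic subunit of protein kinase A, had changes of -1.68 ± 0.21, -1.74 ± 0.28 and -1.62 ± 0.06, and VAM3, a SNARE of vacuole fusion, was at least 2.06-fold lower at 40 min. TOR1 and TPK2, both of kinases known to hold autophagy down, thus differed in direction at 40 min.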

How the data were processed

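Per the file headers, the deposited scanner output (QuantArray version 3) gives each spot's intensity and local background intensity in both channels, linear and not normalized. Log2 ratios are in the value table that the authors deposited (background subtracted, low values raised to the buffer-spot mean, array median subtracted, spots of low quality removed), with a median of 0 in each column. The dye fields and scanner headers give Cy5 as the sample, but the labelling text has them reversed. Repeating the authors' steps on the scanner values gave Cy5 over Cy3 ratios that followed the table across genes (r = 0.994 to 0.998, all positive), and these were read as sample over reference. There was no dye swap.

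Background was corrected with normexp (offset 50) and each array normalized by global loess in limma 3.58.1 (R 4.3.3), with 236 buffer and 384 Arabidopsis spots at weight 0. The gene-spot median was then subtracted and duplicate spots were averaged, leaving out 17 flagged spots of the 0 min array, none of an ATG gene. The pipeline was tested on simulated data. Median sample intensity of the gene spots was 921 to 2039 per array, but precision is limited by having 1 array a group. Above background means that at least 1 spot was brighter than the 95th percentile of buffer spots. Where 1 side was not, the fold is a lower bound from the normalized intensities of single channels (loess and Aquantile), which across the 2 channels is open to dye bias, and folds are left out where both sides were dim or the bound was under 1.

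Symbols come from RefSeq (assembly R64) by ORF name, with 5663 of 6218 matched. That table was used for names, overlaps and neighbours, since the array's own build is not given in the sources used here. Members, role groups and lists were chosen with earlier results of these data known. Values on all arrays are given for the 22 ATG genes past 2-fold in any comparison with 5.5 h or at 5.5 h with the reference. From the pathway list the 4 largest changes at 40 min in each direction past 2-fold were named, with VPS30, SNX4, UME6 and RPH1, and the Cvt cargo was named after its values were seen. Alternatives were other scalings, the value table, filters on dim spots, single spots, the sample channel alone and a 1.5-fold threshold.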

Additional observations from a re-analysis of the deposited data

How the results depend on the processing

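No paired analysis was possible because each group has 1 array, and no result was tested, so counts and medians are descriptions. Signal over background limits them, as does having 1 array a group, and only 15 of the 36 ATG genes exceeded background in sample and reference on every array. Over those 15, counts of lower genes were 2 at 5.5 h against the reference, 7 at 20 min, 6 at 40 min and 3 from 0 to 20 min. Median log2 values over them at 5.5 h were 2.07 (all ATG), 2.98 (core) and 1.11 (selective), and changes were -0.92 (selective, 20 min), -0.998 (core, 40 min) and -0.994 (selective, 40 min). Asking this of the 2 arrays compared only, a filter added after seeing the data, gave -1.84 for the selective members at 40 min. With each dim side at its bound, 3 genes were lower at 5.5 h and 7 at 40 min. The medians were then 0.50 at 5.5 h (0.50 also with Arabidopsis spots as background), -0.72 at 20 min and -0.52 at 40 min over all ATG genes, and -0.92 and -0.91 over the selective members.

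Print-block loess left 0 genes higher at 20 min, at 40 min and from 0 to 20 min, and gave 2 lower at 0 min and 1 higher from 20 to 40 min. It moved the selective median to 1.07 at 5.5 h and -1.60 at 40 min. The array median left 9 genes lower at 20 min. It gave medians of 0.40 (selective, 5.5 h), -0.24 and -0.20 (all ATG and selective, 0 min), -0.85 and -0.93 (20 min), and -0.49, -0.49 and -1.14 (all ATG, core and selective, 40 min). The authors' steps gave 0.36 (selective, 5.5 h), -1.06 (selective, 20 min), and -0.54, -0.54 and -1.20 at 40 min. The authors' value table gave 1 gene lower at 0 min and medians of 0.10 and 0.42 (all ATG and selective, 5.5 h), -0.60, -0.53 and -1.05 (20 min), and -0.56, -0.56 and -1.17 (40 min). The sample channel alone gave -0.50, -0.47 and -0.97 at 20 min, -0.58 (all ATG) and -1.27 (selective) at 40 min, and 1 gene higher and 1 lower from 20 to 40 min.

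Spot 1 alone gave 2 genes lower at 0 min. Spot 2 alone gave 4 lower at 0 min, 10 lower from 0 to 20 min, 1 higher from 20 to 40 min and a core median of 0.82 at 5.5 h. At 1.5-fold, 8 genes were lower at 5.5 h, 7 at 0 min and 12 from 0 to 20 min, 3 were higher from 0 to 20 min, and 5 were higher and 5 lower from 20 to 40 min. No median or count changed direction, and the cause of these shifts was not tested.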
